A study of Macaca fascicularis
Homo sapiens with 2 samples.

Results

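BARHL1-positive cynomolgus neural cells are cells of the cynomolgus macaque, Macaca fascicularis, in which at least 1 molecule of BARHL1 RNA was counted after 7 days of neural induction. They numbered 1428 of 6302 cynomolgus cells in the day 7 library, and of 28496 cell barcodes in both libraries of the study. A cynomolgus cell had at most 10% of its unique molecular identifiers (UMIs, each standing for a captured RNA molecule) on human genes, at least 2000 UMIs, at least 500 genes and at most 20% mitochondrial UMIs. A BARHL1-positive cell had at least 1 UMI of the cynomolgus copy of BARHL1 (ENSMFAG00000001005). The cells were thus chosen by their BARHL1 count, and the level of BARHL1 in them is a description. The other 4874 cells had 0 UMIs of it, and 1428 of these, paired to the positive cells on total UMIs, served for comparison. Members and comparison cells come from the same library, so cells are not replicates and no test was run.

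The study pooled, in equal numbers, the human embryonic stem cell line H9 and the cynomolgus induced pluripotent stem cell line 56A1. Both lines carried a knockout of UGP2, the gene of an enzyme that makes UDP-glucose, and no wild-type cells were used here. The day 0 library held the pluripotent cells in UPPS medium. The day 7 library held cells kept in neural progenitor medium with 10 µM SB431542 and 100 nM LDN193189, inhibitors of the TGF-beta/activin and BMP receptors. Each species is 1 line and each day 1 library, so all values describe this line in this culture.

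BARHL1 is a homeodomain transcription factor of the BarH-like family, with BARHL2 as its close relative. In the vertebrate embryo these factors are known from the caudal forebrain, including parts of the diencephalon and the mammillary and subthalamic regions, and from the midbrain, hindbrain and spinal cord. BARHL1 is also known from the granule cell lineage of the cerebellum, which arises from the rhombic lip, and from hair cells of the inner ear.

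The day 7 library held 16403 barcodes with 99430745 UMIs and the day 0 library 12093 barcodes with 71377836 UMIs. The libraries shared 50 barcode sequences, which 19 of the cynomolgus day 7 cells and 5 of the BARHL1-positive cells carried. The share of UMIs on human genes was low and even: 6120 of the 6302 cynomolgus cells had over 5% and up to 8% human UMIs. The source of these UMIs was not tested. No doublet caller was applied, so droplets with 2 cynomolgus cells can be among the positive cells. Without the 5% of cells with the most UMIs, 1307 positive cells remained. All intervals below are exact 95% intervals for counting error, and the spread between cells comes on top of it.

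BARHL1 was spread thinly over the cynomolgus day 7 culture. Its level over all 6302 cells was 57.9 UMIs per 1000000 cynomolgus non-mitochondrial UMIs (CPM; 55.4 to 60.5), from 1992 UMIs. The positive share was 22.7% (21.6 to 23.7). Of the positive cells, 1035 had 1 UMI, 276 had 2, 78 had 3, and 39 had 4 or more, with a highest count of 7. On day 0, 0 of 2013 cynomolgus cells had a BARHL1 UMI, which allows a share of up to 0.149%, and 3 counts there would be 0.281 CPM.

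Whether a cell was positive depended on how deeply it was read. With the cells in 5 groups of rising depth, the positive share went from 13.2% in the shallowest through 16.4%, 22.3% and 26.1% to 35.3% in the deepest. The BARHL1 level in the same groups was 59.9, 54.8, 65.2, 61.8 and 52.6 CPM, without such an order. When each cell was thinned to 2500 cynomolgus UMIs, 757 of 5957 cells were positive, or 12.7% (11.9 to 13.6), with 345 shallower cells left out. A cell with 0 UMIs is therefore a cell in which BARHL1 was not counted, not a cell shown to lack it.

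The counts were nonetheless more uneven than a uniform level would give. If every cell held BARHL1 at the same level relative to its depth, Poisson counting would give 1649 positive cells, against 1428 counted. It would give 37.8 cells with 3 UMIs and 6.41 with 4 or more, against 78 and 39. In the thinned cells the variance of BARHL1 was 1.204 times its mean, and the median over 8189 genes was 1.03. Of 3946 genes within 2-fold of the level of BARHL1, 87 had a higher ratio. The same ratio was 1.11 for PAX6, 1.08 for LHX5 and 13.6 for NPPB, a natriuretic peptide gene whose UMIs sat in few cells.

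**Figure D1:**
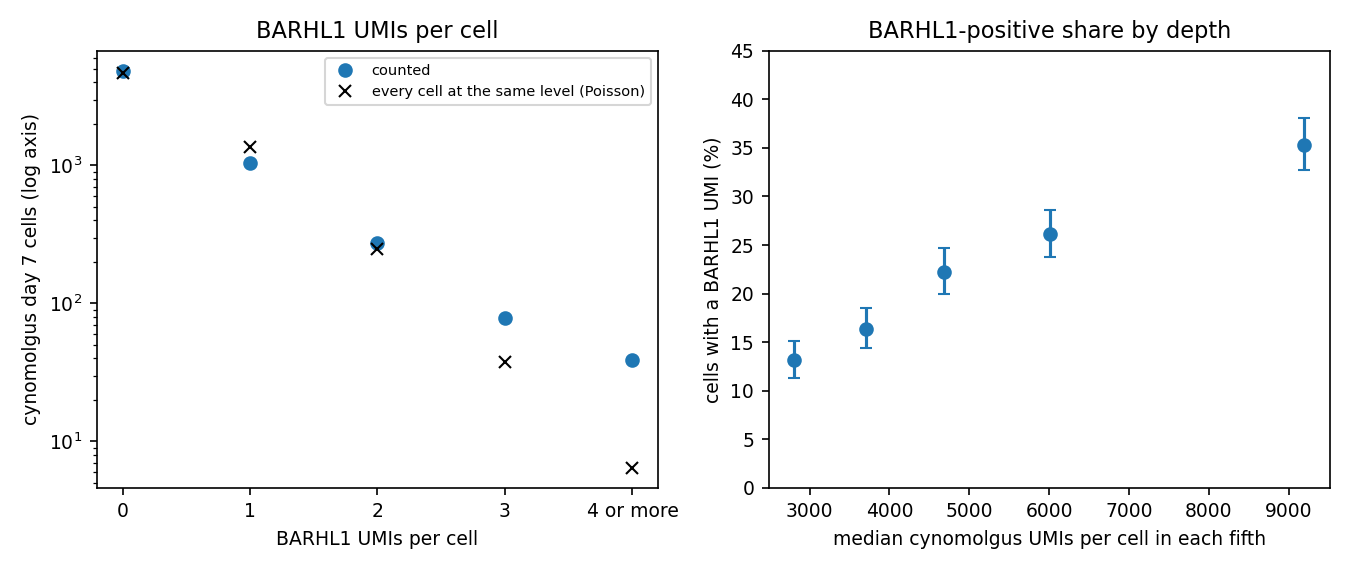
Left: number of cynomolgus day 7 cells (log axis) by BARHL1 UMIs per cell, as counted (circles) and as Poisson counting at a uniform level would give (crosses). Right: percent of cells with a BARHL1 UMI against the median cynomolgus UMIs of each of 5 depth groups, with exact binomial 95% intervals. The counted cells exceed the crosses at 3 UMIs and at 4 or more, and the positive share climbs from 13.2% to 35.3% with depth.

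Human cells of the same library held almost no BARHL1 UMIs. Among 7974 human day 7 cells, 28 (0.351%, 0.233 to 0.507) had a UMI of the cynomolgus copy, at a median of 63 cynomolgus UMIs per cell, against a median of 4681.5 in cynomolgus cells. Relative to the cynomolgus UMIs in those human cells the level was 47.2 CPM (31.4 to 68.2), an interval that holds the 57.9 CPM of the cynomolgus cells. Human BARHL1 (ENSG00000125492) had 0 UMIs in the 7974 human cells, which allows a share of up to 0.0376%, and 3 counts there would be 0.069 CPM. There were thus no BARHL1-positive human cells in which to repeat the comparison. The human copy was counted once in each of 6 cynomolgus cells.

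At the limits that define the cells, BARHL1 was at a similar level on either side. It was 49.2 CPM (25.4 to 85.9) in the 46 cells with over 9% and up to 10% human UMIs. It was 63.0 CPM (28.8 to 119.7) in the 25 cells just over the limit, with up to 11%. It was 61.8 CPM in the 559 cells within 1000 UMIs above the minimum of 2000, and 54.1 CPM in the 165 cells within 1000 UMIs below it.

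The positive cells were found in every one of the 5 large clusters, which were made without BARHL1. In these clusters BARHL1 lay between 44.2 and 70.6 CPM. It was 55.7 CPM (51.1 to 60.5) in cluster 0, led by the S phase genes UHRF1 and MCM4, and 58.0 CPM (53.5 to 62.8) in cluster 1, led by the mitotic genes PLK1 and TOP2A. It was 68.9 CPM (62.5 to 75.7) in cluster 2 and 70.6 CPM (61.1 to 81.1) in cluster 4, both led by ADM and ANKRD37, genes known to be induced at low oxygen. It was 44.2 CPM (38.3 to 50.8) in cluster 3, led by the ventral eye gene VAX2 and the WNT inhibitor DKK1. The interval of cluster 1 overlapped those of clusters 0, 2 and 4, that of cluster 0 lay below those of clusters 2 and 4, and that of cluster 3 lay below all 4.

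BARHL1 was lowest in a group of 70 cells. In cluster 5, led by CYP1B1, SHH, CDH1 and KRT19, it was 15.4 CPM (6.17 to 31.6), from 7 UMIs in 4 positive cells. Thinned to 2500 UMIs, 1 of 68 of these cells was positive. CYP1B1, a cytochrome P450 gene, was at 548.3 CPM there and 4.59 CPM in all other cells. SHH, the ventral midline morphogen, was at 98.7 and 0.324 CPM, and the epithelial keratin KRT19 at 421.1 and 12.1 CPM. The neural factors PAX6 and LHX5 were low in the same cells, at 17.5 and 15.4 CPM against 106.1 and 68.1 CPM elsewhere. The cluster holds markers of several tissues and is called by its leading genes here. Cluster 6, with 24 cells and 1 BARHL1 UMI, was too small to place (17.5 CPM, 0.443 to 97.5).

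In a finer division into 13 clusters, BARHL1 was highest, at 78.1 CPM (68.3 to 89.0), in 580 cells led by the contractile genes CNN1 and ACTA1 and by NPPB. It was 34.2 CPM (27.3 to 42.4) in 712 cells led by DYNLT2 and VAX2, and 25.7 CPM (16.1 to 38.9) in 115 cells led by CYP1B1 and SHH.

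**Figure D2:**
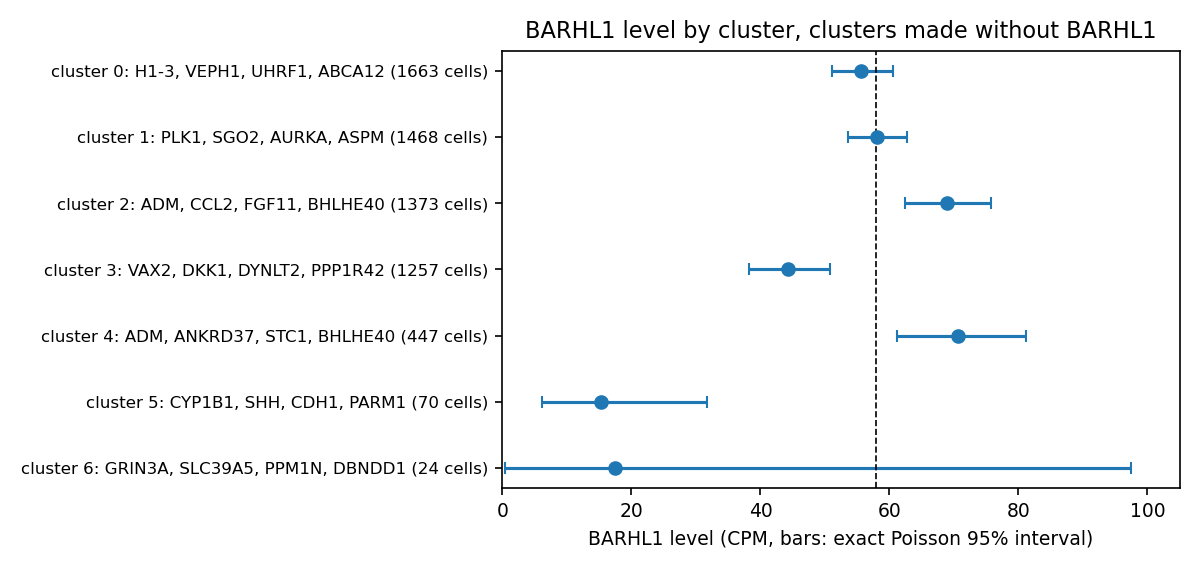
BARHL1 level in CPM (horizontal axis) with exact Poisson 95% intervals in 7 clusters made without BARHL1, each named by its leading genes and cell number. The dashed line marks the level over all cells, 57.9 CPM; cluster 5, led by CYP1B1 and SHH, lies at 15.4 CPM and the 5 large clusters between 44.2 and 70.6 CPM.

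Apart from BARHL1, most differences between positive and matched cells were small. Matched cells can hold BARHL1 that was not counted, so small differences do not show that the cells are alike. The pairs had near-equal depth, with medians of 6021 and 6020.5 UMIs, 3168 and 3177 genes, and 2.14% and 2.16% mitochondrial UMIs. Of 8188 genes with a mean of at least 10 CPM, 2 (0.0244%) were at least 1.5-fold higher in the positive cells and 19 (0.232%) at least 1.5-fold lower. At 2-fold the counts were 0 and 3 (0.0366%). Within 1.2-fold lay 7682 genes (93.8%), and the median log2 ratio was -0.02. For 1164 of the 8188 genes the counting interval of the ratio excluded 1. Ratios on the log2 scale were taken after adding 1 CPM to each level, which understates the change of low genes. Of the 4113 genes at 50 CPM or more, 0 passed 1.5-fold in either direction.

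The 2 genes past 1.5-fold on the higher side were both low. ATXN7L3, of a chromatin deubiquitinating module, was at 12.4 CPM in positive and 7.73 CPM in matched cells, a ratio of 1.60 (1.18 to 2.19). Its log2 ratio turned to -0.55 when cells were called on thinned counts. CDH18, a cadherin, was at 20.6 and 13.3 CPM, a ratio of 1.55 (1.23 to 1.97). Neither was called, at 10 CPM or more and past 1.5-fold, without matching, with matching on cynomolgus UMIs or with matching within clusters. With matching within clusters ATXN7L3 still had a log2 ratio of 0.69, past 1.5-fold, and CDH18 had 0.41. ITGA8, an integrin subunit, reached a ratio of 1.504 (1.35 to 1.68) at a higher level, 90.1 against 59.9 CPM, and was just under the limit with 1 CPM added. ITGA8 UMIs were in 257 of 1387 positive and 166 of 1387 matched cells after thinning (33.2% and 23.3% before), with 0.301% of human cells as background. GCNT1, a glycosyltransferase, followed at 46.6 and 32.4 CPM. The other 8 of the 12 highest genes, PGM2L1, ANXA3, DNAJC9, PRR22, GNAZ, GEM, NELL1 and ZNF829, were at 22.3 CPM or less with log2 ratios of 0.45 to 0.54.

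Genes lower in the positive cells reached larger ratios. CYP1B1 stood first, at 4.45 CPM in positive and 20.6 CPM in matched cells, a ratio of 0.216 (0.151 to 0.305), but 5 matched cells held 111 of its 189 UMIs. PAPPA, a secreted metalloprotease that cleaves IGF-binding proteins, was at 14.8 and 34.7 CPM (ratio 0.425, 0.345 to 0.522). SPON1, an extracellular protein first known from the floor plate, was at 13.4 and 28.6 CPM (ratio 0.467, 0.374 to 0.580). FREM1, a basement membrane protein, was at 16.1 and 30.4 CPM (ratio 0.529, 0.431 to 0.648). NPPB was at 23.3 and 45.1 CPM and the muscle actin gene ACTA1 at 13.3 and 25.2 CPM. In matched cells 5 cells held 47.1% of the NPPB UMIs. In the 1035 cells with 1 BARHL1 UMI the NPPB ratio was 1.01 (0.816 to 1.25), and in those with 3 or more the ACTA1 ratio was 1.10 (0.571 to 2.12). The finer cluster led by NPPB and ACTA1 was also the cluster with the highest BARHL1 level, the opposite of the order between positive and matched cells. NRP2, PLAUR, GPATCH4, TXNDC11, KRT19 and PREX1 completed the 12 lowest, with log2 ratios of -0.79 to -0.64.

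These values moved in part with the 70 cells of cluster 5, of which 4 were positive and 28 were among the matched cells. PAPPA was at 204.0 CPM in cluster 5 and 25.3 CPM in other cells, SPON1 at 217.1 and 21.2 CPM, and FREM1 at 245.7 and 21.1 CPM. With cluster 5 left out, 10 genes in place of 19 were at least 1.5-fold lower, and all 10 were among the 19. CYP1B1 then had a log2 ratio of -0.34 in place of -1.98, and KRT19 turned from -0.65 to 0.34. PAPPA stayed at -1.18, SPON1 was at -0.94 and FREM1 at -0.68. PAPPA was in 43 of 1387 positive and 95 of 1387 matched cells after thinning (6.20% and 12.3% before), and SPON1 in 35 and 62 (6.71% and 11.3% before). The human background was 0.113% for PAPPA and 0.188% for SPON1.

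**Figure D3:**
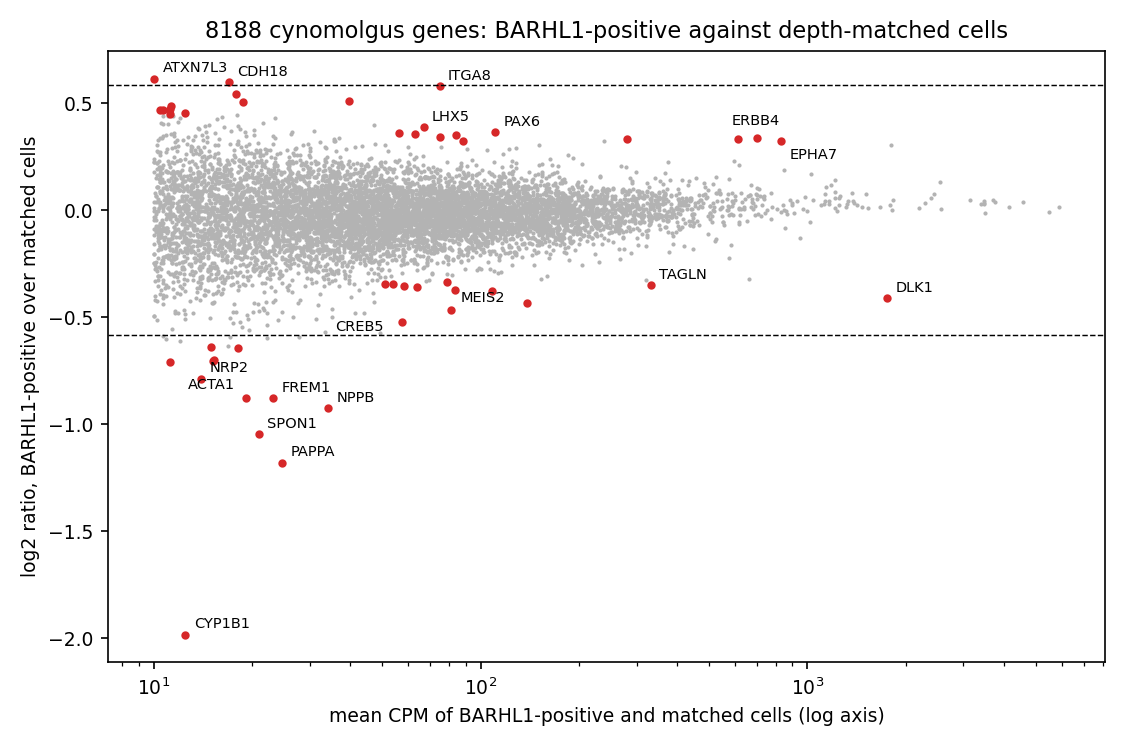
Log2 ratio of BARHL1-positive over matched cells (vertical axis, 1 CPM added) against mean level in CPM (log axis) for 8188 genes. Grey points are all genes, red points the 12 highest and 12 lowest, over all and among genes at 50 CPM or more, and dashed lines mark 1.5-fold; most points lie close to 0, and the points farthest out, such as CYP1B1 at -1.98, are at low levels.

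Among genes at 50 CPM or more, a set chosen after the values were seen, differences were small but well counted. LHX5, a LIM homeodomain factor, was at 76.2 and 57.9 CPM (ratio 1.31, 1.17 to 1.47). PAX6, a paired-box factor of neural progenitors, was at 124.6 and 96.6 CPM (ratio 1.29, 1.18 to 1.41). The Notch ligand DLL1 was at 84.1 and 66.0 CPM (ratio 1.27, 1.14 to 1.42). The receptor tyrosine kinases EPHA7 and ERBB4 had ratios of 1.25 (1.22 to 1.30) and 1.27 (1.22 to 1.31), and the receptor phosphatase PTPRM 1.26 (1.21 to 1.31). EPHA7 was in 80.4% of positive and 71.4% of matched cells after thinning (93.7% and 86.8% before), and in 2.26% of human cells.

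On the lower side at 50 CPM or more were CREB5, a leucine zipper factor, at 47.0 and 68.1 CPM, and the homeodomain factor MEIS2 at 67.8 and 94.1 CPM (ratio 0.721, 0.649 to 0.800). DLK1, a membrane protein related to the Notch ligands, was at 1506 and 2002 CPM (ratio 0.753, 0.736 to 0.769). DLK1 was in 84.5% of positive and 90.5% of matched cells after thinning (93.7% and 96.3% before), with 9.89% of human cells as background. The WNT receptor partner LGR4, the smooth muscle genes TAGLN and MYLK, and the chemokine gene CCL2 had ratios between 0.767 and 0.784. CCL2 was nonetheless in like shares of cells, 20.2% and 20.3% before thinning, and in cells with 3 or more BARHL1 UMIs it lay the other way, at a ratio of 2.03 (1.48 to 2.81), with TAGLN at 0.988 (0.845 to 1.16).

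Among factors of the caudal forebrain, where BARHL1 is known, the better counted genes were slightly higher and the low ones were not. Of 20 BarH and caudal forebrain factors, 8 were at 10 CPM or more, 7 of these had a log2 ratio above 0 and 0 passed 1.5-fold. Their median was 0.27, with an interval of -0.31 to 0.40 that holds 0. Over all genes tested 43.7% were above 0, with a median of -0.02. Of the 10 further factors with UMIs but under 10 CPM, 1 was above 0 and 9 below, so that 8 of 18 (44.4%) were above 0 in all, against 42.4% of 13522 genes with UMIs. The 9 include ZIC1, level at 21 and 21 UMIs, and of the 10 LHX9 alone had an interval that excluded 1. The secreted WNT ligand WNT8B, known from the dorsal forebrain, was at 53.9 and 40.6 CPM (ratio 1.33, 1.16 to 1.52). EBF1 was at 56.5 and 45.5 CPM and NR2F2, a nuclear receptor, at 135.0 and 114.9 CPM. TCF7L2, a WNT effector abundant in the thalamus, was even, at 411.7 and 404.3 CPM (ratio 1.02, 0.973 to 1.07), and ZIC4 was at 10.4 and 13.2 CPM (ratio 0.792, 0.599 to 1.04).

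The relative BARHL2 was at a very low level. It had 26 UMIs in positive cells and 14 in matched cells, or 2.83 and 1.52 CPM, and the interval of the ratio, 0.933 to 3.84, included 1. OLIG3 and LHX1 had 0 UMIs in both groups. LHX9, a LIM homeodomain factor, had 6 and 19 UMIs (ratio 0.315, 0.103 to 0.821), and EBF2 had 15 and 23 (ratio 0.651, 0.316 to 1.30). Genes on either side of BARHL1 on the chromosome, placed by the RefSeq annotation of another cynomolgus assembly (T2T-MFA8v1.1), were close to even: DDX31 had a ratio of 1.02 (0.909 to 1.14) and CFAP77 of 1.02 (0.903 to 1.15).

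Few markers of the other regions where BARHL1 is known reached 10 CPM. Of 18 mammillary, hypothalamic and subthalamic factors, 3 reached 10 CPM, with a median log2 ratio of -0.17; FOXB1 was at 10.4 and 10.3 CPM, and NKX2-1 was under 1 CPM. FOXP2 had 24 and 47 UMIs (ratio 0.510, 0.298 to 0.850), and SIM1 had 0 and 8. Of 14 hindbrain factors 1 reached 10 CPM and 7 HOX genes had 0 UMIs. Of 17 midbrain and isthmus factors 2 reached 10 CPM, EN1, EN2 and WNT1 had 0 UMIs, and PAX8 had 6 and 23 (ratio 0.260, 0.0867 to 0.658). Of 15 rhombic lip and granule cell factors 6 reached it, with a median of 0.04, and NEUROD1 had 0 UMIs in positive cells and 1 in matched cells. Of 18 placode and otic markers 3 reached it, with a median of -0.03, and the hair cell factor POU4F3 had 0 UMIs.

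The 11 genes of the ventral midline and its SHH signal with UMIs were each below 0, against 7795 of 13522 genes with UMIs. Of 16 floor plate and SHH pathway genes 5 were tested, 0 had a log2 ratio above 0 and 1, SPON1, passed 1.5-fold, with a median of -0.11. The 6 under 10 CPM with UMIs were below 0 as well. SHH itself had 6 UMIs in positive and 25 in matched cells, and the ventral factor NKX2-2 had 12 and 29. The SHH receptor PTCH1 had a ratio of 0.924 (0.834 to 1.02). With cluster 5 left out SHH had a log2 ratio of -0.11. Of 23 roof plate and dorsal midline genes 9 were tested, 5 above 0, with a median of 0.10. WLS, which carries WNT proteins to the cell surface, was at 645.0 and 548.8 CPM (ratio 1.18, 1.13 to 1.22), while the roof plate factor LMX1A was at 19.4 and 22.0 CPM.

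Of 19 FGF and ERK targets, which include feedback inhibitors of the pathway, 7 were tested and 0 passed 1.5-fold. FGFR2 was above 0, with a ratio of 1.10 (1.003 to 1.21), and the other 6 were below. The median was -0.21, with an interval of -0.30 to 0.14 that holds 0. All 11 genes of the list under 10 CPM were below 0 too, against 3184 of 5334 genes with UMIs under 10 CPM. Of the 11, FGF9 (85 and 85 UMIs) and DUSP4 (24 and 24) were level, and below 0 only through the scaling to CPM. The ERK inhibitor SPRED1 was at 133.0 and 159.1 CPM (ratio 0.836, 0.774 to 0.903). DUSP6, an ERK phosphatase, had 59 and 122 UMIs, or 6.41 and 13.3 CPM (ratio 0.483, 0.348 to 0.664), below the level needed to be counted. The ligand FGF8 was even, at 9.45 and 9.80 CPM, and so was the receptor FGFR1, at 242.3 and 245.4 CPM.

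**Figure D4:**
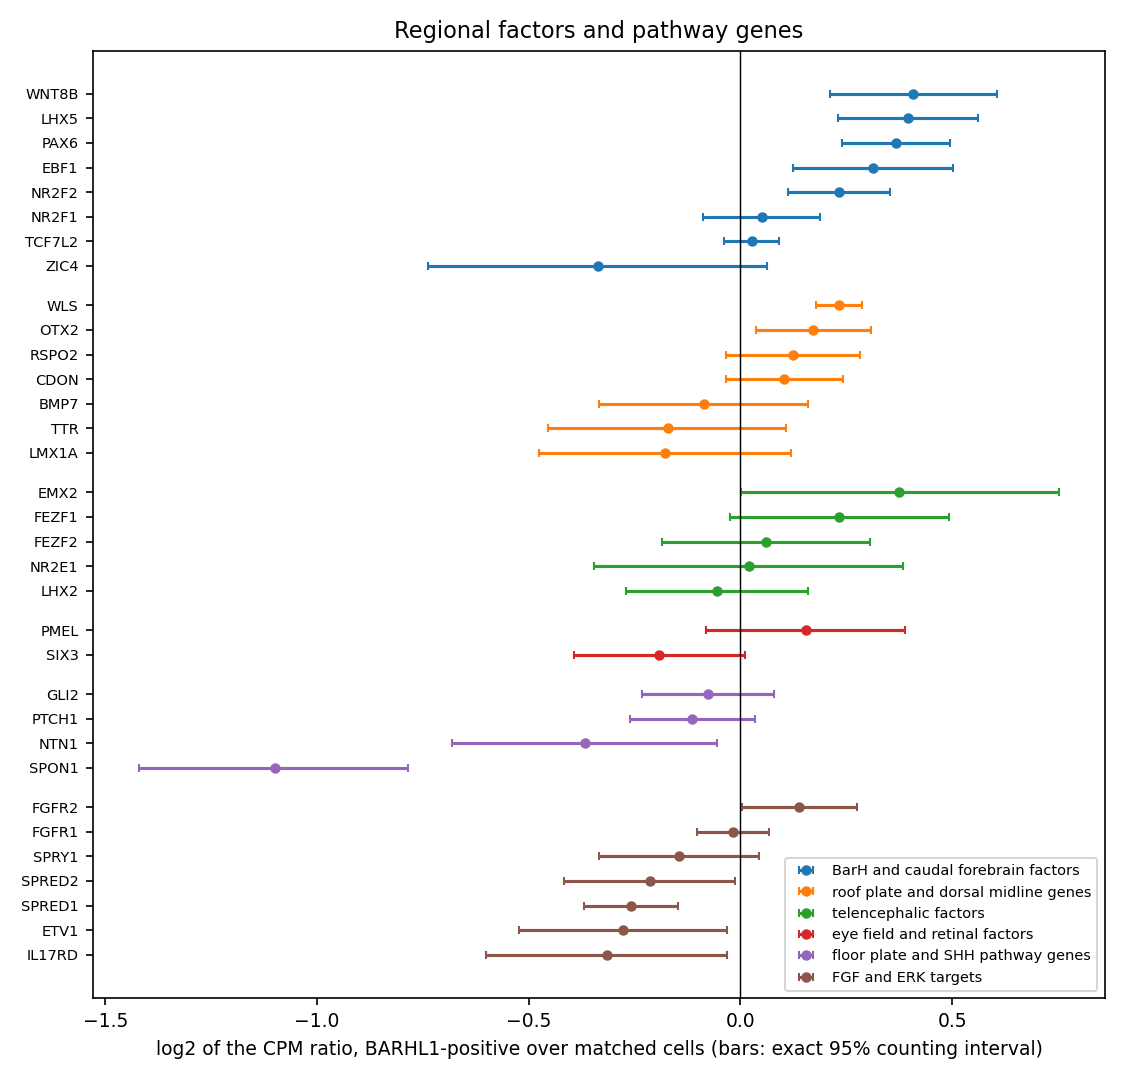
Log2 of the CPM ratio of BARHL1-positive over matched cells (horizontal axis, nothing added) for genes tested from 6 lists (1 gene not drawn), with exact 95% counting intervals. A gene in several lists is drawn in the first of them; WNT8B, LHX5, PAX6, EBF1 and NR2F2 lie right of 0 with their intervals, and SPON1 lies farthest left.

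Neural progenitor genes were abundant in both groups, and neuron genes were at similar levels in both. Of 25 neural progenitor genes 17 were tested, 9 were above 0, with a median of 0.02. SOX2 was at 182.1 and 160.6 CPM (ratio 1.13, 1.06 to 1.22), and CDH2, the neural cadherin, at 1230 and 1132 CPM. Of 25 neuron genes 9 were tested, 2 above 0, with a median of -0.07. TUBB3 was at 63.5 and 66.5 CPM. STMN2, a gene of postmitotic neurons, had 4 and 1 UMIs, and NEUROG1, ISL1 and POU4F1 had 0 in both groups.

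The medians of the cell cycle, hypoxia, stress response, WNT and Notch lists lay within 0.1 of 0. The 22 S phase genes tested had a median of -0.01, the 24 G2 and M phase genes 0.05, the 15 hypoxia genes 0.05 and the 11 integrated stress response genes -0.07. Of the 16 integrated stress response genes with UMIs, 3 were above 0 and 13 below, against 7795 of 13522 genes below. The 15 WNT pathway genes had a median of 0.01 and the 12 Notch pathway genes of -0.02, with DLL1 and DLK1 at the ends. Of the 28 WNT pathway genes with UMIs, 12 were above 0 and 16 below. Among the 16 was WIF1, with 14 and 46 UMIs (ratio 0.304, 0.154 to 0.562). Among BMP targets ID1 was at 54.9 and 46.8 CPM and ID3 at 26.7 and 40.1 CPM. Of the 26 lists, 0 had a gene at least 1.5-fold higher and 2 had a gene at least 1.5-fold lower, SPON1 and KRT19. Of the 21 lists with at least 3 genes tested, 15 had a median within 0.1 of 0.

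Defining markers of other tissues were at 0 or low, while a pair of contractile genes was abundant in both groups. The 11 surface ectoderm and epithelial markers summed to 22.9 CPM in positive and 35.8 CPM in matched cells, with CLDN4 at 0 and TP63 and TFAP2A under 1 CPM. The 15 neural crest markers summed to 25.3 and 32.4 CPM, with FOXD3, TFAP2B and EDNRB at 0. The 12 with UMIs were all below 0, against 7795 of 13522 genes with UMIs, but 11 of the 12 were under 10 CPM. The 10 endoderm markers summed to 84.3 and 96.0 CPM, with SOX17 and GATA4 among those at 0. The 7 endoderm markers with UMIs were also all below 0, and 4 of the 7 were under 10 CPM. The 16 mesoderm and mesenchyme markers summed to 486.5 and 569.0 CPM, of which TAGLN gave 291.5 and 372.1 CPM and ACTA2 177.2 and 179.2 CPM, with TBXT, HAND1 and DCN at 0. The part of these markers in the lower genes was not tested beyond the values without cluster 5.

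Some differences were larger in cells with more BARHL1 UMIs. Positive cells with 1, 2 and 3 or more UMIs (1035, 276 and 117 cells) were each set against their own matches. The median log2 ratio of the 8 caudal forebrain factors was 0.17, 0.29 and 0.61, and that of all genes -0.02, -0.01 and -0.02. The rise was not particular to this list. Medians were -0.0074, 0.31 and 0.40 for the 5 telencephalic factors tested, and -0.085, 0.18 and 0.30 for the 5 proneural and commitment genes. At 2 or more UMIs the telencephalic median was 0.41 and the caudal forebrain median 0.39. The rhombic lip list had no such order, at 0.04, 0.34 and -0.28. DLL1 had ratios of 1.17 (1.03 to 1.34), 1.47 (1.15 to 1.87) and 2.11 (1.45 to 3.11), and the first and last intervals did not overlap. Its level in positive cells was 79.4, 93.3 and 98.4 CPM, and in their matches 67.7, 63.6 and 46.6 CPM. Part of the rise in the ratio thus lay in the matched cells, with 43 UMIs in the last class. NR2F2 had ratios of 1.13 (1.02 to 1.24), 1.24 and 1.45 (1.11 to 1.90), with overlapping intervals. DLK1 had ratios of 0.794 (0.773 to 0.815), 0.632 (0.600 to 0.665) and 0.596 (0.555 to 0.640), the first apart from the other two.

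Other genes showed no such order. PAX6 had ratios of 1.26 (1.13 to 1.40), 1.49 (1.21 to 1.84) and 1.47 (1.11 to 1.95), and the intervals overlapped. LHX5 had 1.25, 1.71 and 1.60, and WNT8B 1.38, 1.21 and 1.74. MEIS2 had 0.735, 0.639 and 0.785 (0.548 to 1.12), the last with an interval that included 1. PAPPA had 0.463, 0.350 and 0.384, below 1 with its interval in each class.

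Fewer cells give noisier ratios, and the share of all genes past 1.5-fold widened in both directions. It was 0.0977% higher and 0.305% lower with 1 UMI, 1.86% and 2.74% with 2, and 4.92% and 6.39% with 3 or more. For the 393 cells of 2 or more UMIs it was 1.03% and 1.75%. Of the 8 caudal forebrain factors, 0, 1 and 4 were at least 1.5-fold higher in the 3 classes. The 4 included ZIC4, with 8 and 3 UMIs (ratio 2.66, 0.639 to 15.6). In cells with 1 BARHL1 UMI the ZIC4 ratio was 0.694 (0.489 to 0.979). The median depth also differed between the classes, at 5819, 6249.5 and 7244 UMIs, and was matched within each.

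**Figure D5:**
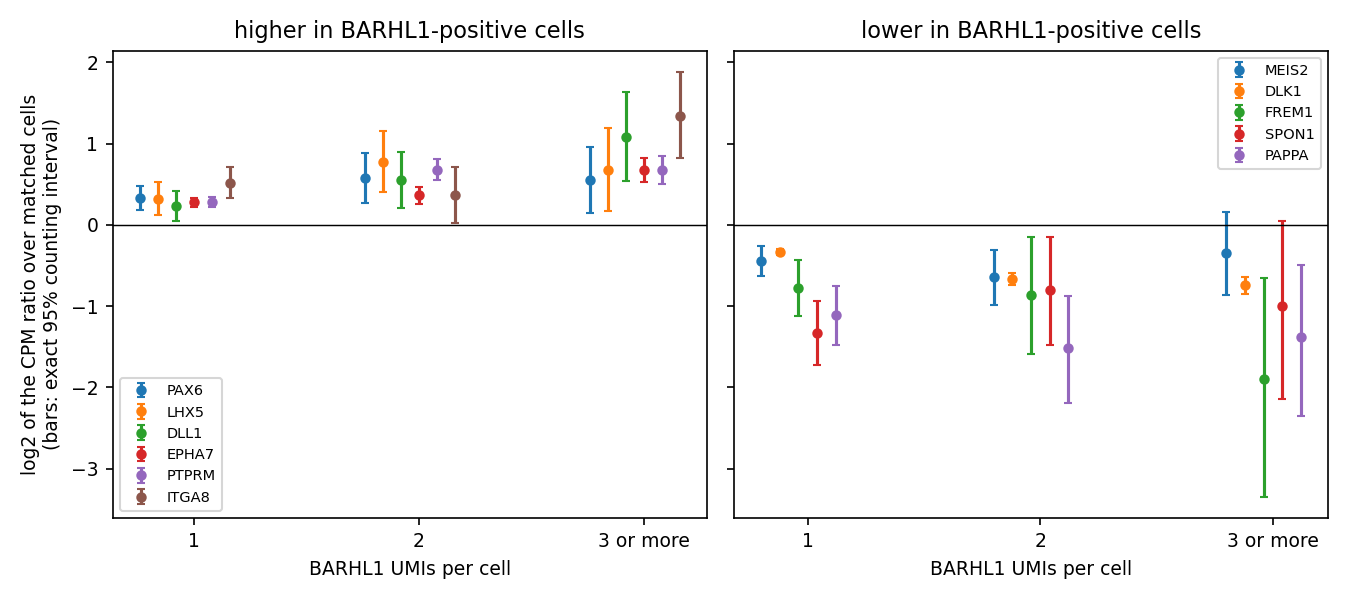
Log2 of the CPM ratio over matched cells (vertical axis, nothing added) for cells with 1, 2 and 3 or more BARHL1 UMIs, with exact 95% counting intervals, for 6 genes higher (left) and 5 genes lower (right) in BARHL1-positive cells. DLL1 and EPHA7 lie higher at 3 or more UMIs than at 1, DLK1 lies lower, and the intervals of PAX6 and PAPPA overlap throughout.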

How the data were processed

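Each day gave 1 deposited 10x 3' v3.1 matrix of UMI counts, with genes in rows and cell barcodes in columns. The matrices name version 7.1.0 of Cell Ranger, per the file headers, and the submitters' processing notes give version 7.2.0 and the human build GRCh38. Cynomolgus genes carry the prefix of Macaca_fascicularis 6.0, Ensembl release 107. Each positive cell was paired with the cell of 0 BARHL1 UMIs nearest in total UMIs, deepest first and without replacement. The pairs differed by a median of 1 UMI, and 13 pairs by more than 500. UMIs were summed per group and scaled to CPM of the cynomolgus non-mitochondrial UMIs, leaving out BARHL1. The ratio was log2((CPM + 1)/(CPM + 1)) for 15175 genes with a symbol, tested at a mean of 10 CPM or more and called at 1.5-fold. Genes named are the 12 highest and 12 lowest, leaving out mitochondrial and ribosomal protein genes, and members of 26 lists. The members, lists and rule were chosen with earlier results of these data known. Intervals are exact Poisson, binomial or conditional binomial. Clusters came from scanpy 1.11.5 and leidenalg 0.10.2 (2000 variable genes, 30 components, 15 neighbours, resolution 0.5 and 1). In simulated counts for this comparison, with 100 of 8188 genes raised and 100 lowered 1.5-fold, the median log2 ratios recovered were 0.57 and -0.58. These were Poisson counts without spread between cells, so they check the calculation only. Alternatives changed the cell limits, the matching, the scaling, the pseudocount and the minimum level. Some results are not reported here.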

Additional observations from a re-analysis of the deposited data

How the results depend on the processing

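No paired analysis was possible because each day had 1 library. The number and share of positive cells depended on depth and on the limit: 26.3% with at least 4000 UMIs, 393 cells (6.24%) with at least 2 BARHL1 UMIs, 757 cells (12.7%) after thinning, and 8 cells (11.4%) with at most 5% human UMIs, too few for gene values. The 2 higher and 19 lower genes became 84 and 138 with at least 2 BARHL1 UMIs, 34 and 76 after thinning, 17 and 38 at a minimum of 5 CPM, 90 and 198 with no minimum, 0 and 6 at a minimum of 20 CPM, 0 and 7 with 5 CPM added, 1 and 10 without matching, 1 and 10 without cluster 5 (chosen after seeing the data), and 0 and 3 at 2-fold. The higher count was 0 with up to 20% human UMIs, and 1 with weighting by bins of UMIs and with matching on cynomolgus UMIs. Which genes were called, at 10 CPM or more and past 1.5-fold, changed too. Without matching, with weighting, with matching on cynomolgus UMIs and with matching within clusters, 0 of the 2 higher genes were called. Of the 19 lower genes 8, 11, 9 and 10 were called in these settings. With matching within clusters ATXN7L3 was still past 1.5-fold, at a log2 ratio of 0.69. ATXN7L3 turned to -0.55 after thinning, and KRT19 to 0.25 with matching within clusters and 0.34 without cluster 5.

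Of 433 list medians (21 lists with at least 3 genes tested, a limit chosen after seeing the data), 421 stayed within the interval of the reported median, which for the short lists spans all their genes and so says little of stability. With at least 2 BARHL1 UMIs the median was 0.41 for telencephalic factors, 0.0898 for neuron genes and -0.13 for pluripotency genes, each over the genes at 10 CPM in those cells; over the 9 neuron genes of the report it was -0.0010. After thinning it was 0.16 for neuron genes, -0.0762 for S phase genes and 0.0877 for G2 and M phase genes. Without matching it was -0.0599 for floor plate genes and 0.16 for G2 and M phase genes. With weighting by bins it was -0.23 for mammillary factors, 0.0893 for hypoxia genes and -0.0599 for endoderm markers, and with no minimum level -0.21 for mammillary factors. The cause of these shifts was not tested. PAPPA, SPON1 and FREM1 were at least 1.5-fold lower in all 18 settings in which gene values were recomputed. PAX6 lay between 0.31 and 0.57 and WNT8B between 0.37 and 0.51 on the log2 scale in the same settings. At 1 or 2 UMIs per cell, depth limits which cells can be called positive.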
